A study of Homo sapiens with 22 samples.

Results

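MDA-MB-231 cells, an established human line of triple-negative breast cancer, were depleted of METTL3 and then given wild-type METTL3 again, and the RNA of the add-back was set against that of the knockdown. The groups compared hold 4 of the 22 libraries of the series. They are 2 of shM3 cells (the knockdown) and 2 of shM3 cells with METTL3-WT added back (shM3_WT). Genes were kept where the value was 1 FPKM or more in at least 2 of the 8 libraries of the knockdown table, which left 14638 of the 60669 genes listed. FPKM counts fragments relative to the length of the gene and to the size of the library. Of the 2 other groups in that table, 1 is labelled B5 and carries neither shM3 nor an add-back, and the labels do not say what B5 stands for. The other is shM3 with METTL3-CD added back (shM3_CD), and the letters CD are not spelled out. All 4 groups had the genotype label WT and a time of 2 to 3 months, and cells were infected with lentivirus. The promoter of the add-back, the number of clones and whether both libraries of a group are separate cultures were not found in the labels. The p-values therefore measure the spread between 2 such libraries a group, taken over all 4 groups. That spread may be technical only.

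METTL3 is the catalytic subunit of the complex that methylates adenosine at the N6 position in messenger RNA, and METTL14 is the partner that holds the RNA. The mark is bound by reader proteins, among them the YTH family, that alter splicing, export, translation and decay of the transcript. In cells that lose the mark, double-stranded RNA can be sensed as foreign and interferon-stimulated genes switched on, while transcripts of cell cycle and signalling genes are often changed in level.

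3 kinds of promoter recur in the results below, and a few are shown to let the letters be seen. The sequences are RefSeq promoter windows of GRCh38.p14, from 250 bases before to 50 after the start of the gene, found for 10103 of the tested genes and searched on both strands. Each is printed in the direction of the gene, with the searched letters in capitals. The first 5 carry GAAANNGAA, part of the element bound by the interferon-activated complex that holds STAT2 and IRF9. The next pair carries TTTGAA, the cell cycle homology region of late cell cycle genes, and the last pair GGNNTTTCC, the core of a site for NF-kB.
ISG15, chr1:1013364-1013424, plus strand: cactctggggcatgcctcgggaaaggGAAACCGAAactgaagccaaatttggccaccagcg
IFI6, chr1:27672273-27672333, minus strand: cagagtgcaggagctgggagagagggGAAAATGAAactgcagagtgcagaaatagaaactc
IFIT1, chr10:89392482-89392542, plus strand: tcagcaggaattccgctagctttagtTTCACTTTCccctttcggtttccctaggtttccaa
B2M, chr15:44711353-44711413, plus strand: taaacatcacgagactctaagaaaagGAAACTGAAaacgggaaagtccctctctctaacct
HLA-F, chr6:29723253-29723313, plus strand: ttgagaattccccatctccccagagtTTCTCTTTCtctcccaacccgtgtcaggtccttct
CDC20, chr1:43358890-43358947, plus strand: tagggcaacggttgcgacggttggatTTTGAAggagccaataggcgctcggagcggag
TOP2A, chr17:40418059-40418116, minus strand: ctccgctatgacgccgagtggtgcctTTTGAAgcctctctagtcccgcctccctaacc
CXCL8, chr4:73740452-73740512, plus strand: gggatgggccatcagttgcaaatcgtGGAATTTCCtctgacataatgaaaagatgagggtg
CXCL1, chr4:73869289-73869349, plus strand: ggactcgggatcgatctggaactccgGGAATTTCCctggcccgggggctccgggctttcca
In IFIT1 and HLA-F the letters lie on the opposite strand.

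METTL3 (chr14:21498133-21511375, minus strand, hg38) was read first, since it checks the labels. It stood at 4.39 and 4.80 FPKM in shM3 and at 312 and 311 in shM3_WT, so the add-back libraries lay far above the knockdown. The level in the add-back was also 14.2-fold higher than in B5, where it was 20.1 and 23.8 FPKM (log2 fold change 3.77, adjusted p = 2.6e-06). METTL3-CD brought it to 277 and 270.5 FPKM, and the add-backs were not called different from each other (log2 difference 0.19, 95% interval -0.03 to 0.41, adjusted p = 0.18). Gene-level values do not separate transcripts of the added copy from those of the gene's own locus.

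Across all genes, 5772 of 14638 passed at an adjusted p under 0.05 (limma on log2(FPKM + 1), Benjamini-Hochberg adjustment), or 39.4%. Of these 2451 (16.7%) were higher and 3321 (22.7%) lower in shM3_WT than in shM3, and 1193 of them changed at least 2-fold, 652 up and 541 down. Calls therefore leaned to lower values, but this split depended on the scaling. It was 42.5% higher as deposited and 52.8% higher with TMM factors, which moved the median log2 fold change of all genes from -0.08 to 0.00. Without shM3 replicate 1 the calls were 1817 higher and 2187 lower, and without shM3 replicate 2 they were 1774 and 2103. Against B5, 1727 genes were higher (11.8%) and 2659 lower (18.2%) in the add-back. Against shM3_CD it differed in 3785 (25.9%), with 1494 higher (10.2%) and 2291 lower (15.7%). These splits also depended on the scaling. With TMM factors 2465 genes were higher and 2073 lower than in B5, and 2005 higher and 1525 lower than in shM3_CD. With median scaling the lower calls against shM3_CD numbered 1501. The 3 comparisons share the shM3_WT libraries, so they are given side by side and not as support for each other. Folds in the text are ratios of mean FPKM over 2 libraries a group, and log2 fold changes are differences of mean log2(FPKM + 1), which understates the change of low genes. For shM3_CD against shM3, 998 of the 14638 genes were higher and 672 lower. Counts of members given in the text are to be read against these shares of all genes. The filter used all 8 libraries, so a gene under 1 FPKM in a group was tested only through higher values elsewhere. The direction of such a gene is partly set by the filter. In bulk RNA fewer cells of a kind and less RNA per cell cannot be told apart.

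**Figure D1:**
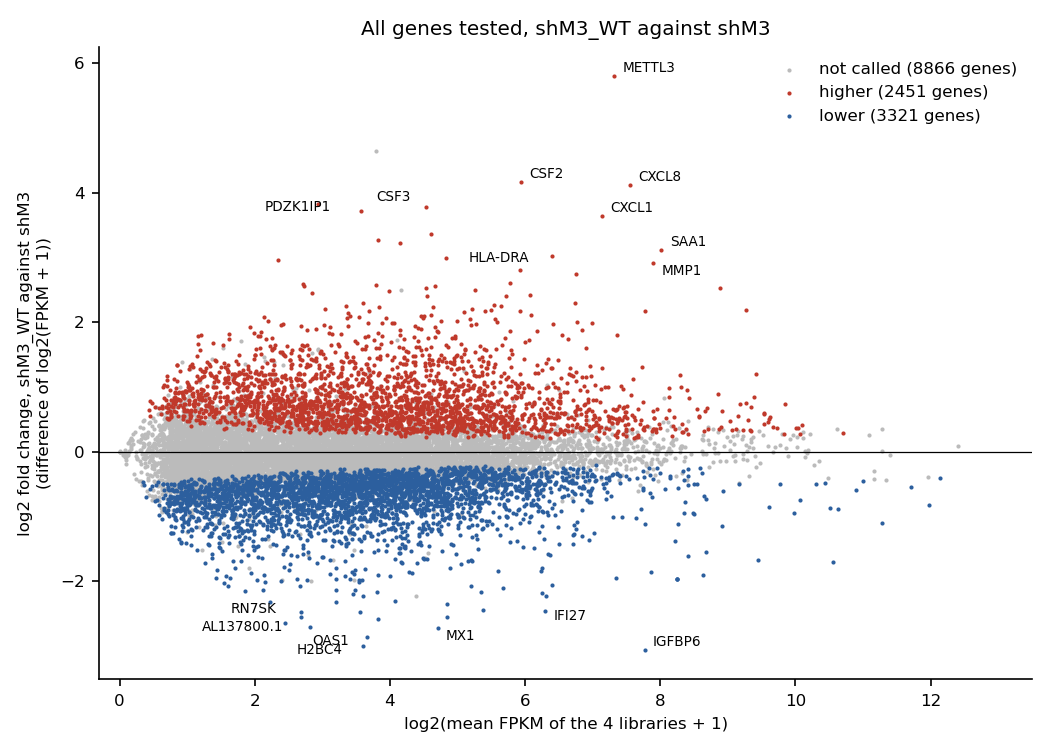
Log2 fold change of shM3_WT against shM3 (vertical axis, difference of log2(FPKM + 1)) plotted against log2(mean FPKM of the 4 libraries + 1) for the 14638 genes tested. Red points are the 2451 genes called higher, blue points the 3321 called lower and grey points the rest, and METTL3 stands highest at 5.81.

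Of the 7 writer complex genes tested METTL3 rose and CBLL1 fell. METTL14 was at 4.95 and 5.13 FPKM in shM3, 7.10 and 4.91 in shM3_WT, against 8.31 and 10.1 in B5. Its difference from shM3 did not pass the test (log2 fold change 0.20, adjusted p = 0.38), and it was 1.53-fold lower than in B5 (adjusted p = 0.042). CBLL1, a ubiquitin ligase of the complex, was 1.41-fold lower (adjusted p = 0.047). WTAP (24.4 FPKM in shM3 against 21.1), VIRMA (15.98 against 12.2), ZC3H13 (6.80 against 5.998) and RBM15B (10.7 against 12.05) did not. The demethylases FTO and ALKBH5 did not pass either, with 3.33 against 2.87 and 46.5 against 39.7 FPKM. Among the 5 YTH readers, nuclear YTHDC1 was 1.56-fold lower and cytoplasmic YTHDF1 1.196-fold lower, and YTHDF2, YTHDF3 and YTHDC2 did not pass. Of 8 other readers tested, 3 rose, namely HNRNPC, HNRNPA2B1 and RBMX, and IGF2BP2 fell. The largest adjusted p with 1 library left out was 0.223 without shM3 replicate 2 for CBLL1, 0.069 without shM3_WT replicate 2 for YTHDC1 and 0.145 without shM3 replicate 1 for YTHDF1, and with TMM factors CBLL1 and YTHDF1 did not pass (adjusted p = 0.0987 and 0.178). VIRMA passed in 1 of these 8 fits (lowest adjusted p = 0.0385 without shM3 replicate 2).

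On the log2(FPKM + 1) scale, many of the largest rises after METTL3 were of genes of secreted inflammatory proteins. CSF2, the growth factor GM-CSF of granulocytes and macrophages, stood at 6.27 and 4.83 FPKM in shM3 and 118 and 114 in shM3_WT. That was 20.9-fold higher than in shM3 and 12.3-fold higher than in B5 (log2 fold change 4.16, SE 0.22, adjusted p = 3.9e-05 against shM3). CXCL8, the neutrophil attractant interleukin 8, went from 19.6 and 19.3 to 351 and 355 FPKM (adjusted p = 1.5e-06). The genes named by size were chosen for libraries that do not overlap between shM3 and shM3_WT. For CSF2 and CXCL8 both add-back libraries lay above every B5 library too. How many of all genes show such an order of libraries was not counted. Here and below the order is therefore a description only. CSF3, the granulocyte factor G-CSF, stood at 2.54 and 1.80 in shM3 and 42.4 and 41.8 in shM3_WT, and at 48.9 and 47.8 with METTL3-CD. CXCL1 and CXCL3, neutrophil attractants of the same family as CXCL8, were 12.9-fold higher and 12.9-fold higher, at 267 and 253 and 33.7 and 28.2 FPKM in the add-back. Chemokine genes of this cluster are similar in sequence, and how multiply aligned fragments were shared between them is not stated in the labels.

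Acute phase and complement genes stood beside them in the list of 15 largest rises. Complement C3 was at 3.05 and 3.59 FPKM in shM3, 45.5 and 41.5 in shM3_WT, against 77.4 and 75.7 in shM3_CD. Serum amyloid SAA1 went from 52.2 and 52.1 to 410.00 and 519, and its near-identical neighbour SAA2 from 16.5 and 12.4 to 98.8 and 112, and these copies cannot be separated with certainty. LCN2, the iron-trapping lipocalin, rose 14.6-fold to 21.4 and 27.8. The collagenase MMP1 went from 56.9 and 52.4 to 414 and 425 FPKM, 9.47-fold higher than in B5 and 4.11-fold higher than in shM3_CD. TFF1, a secreted trefoil peptide of mucous epithelium, went from 5.13 and 5.61 to 49.4 and 50.2, and HLA-DRA, the shared chain of the class II molecule HLA-DR, from 17.0 and 18.1 to 148 and 152. PDZK1IP1, a small membrane protein, went from 0.554 and 0.798 to 21.1 and 21.1. AC087721.2 was listed at 0 in both shM3 libraries, at 14.9 and 11.7 in shM3_WT and at 10.1 and 11.2 in B5, so no fold is given.

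The deepest fall was that of IGFBP6, which binds and restrains insulin-like growth factor II. It stood at 385 and 392.1 FPKM in shM3 and 43.5 and 47.6 in shM3_WT, 8.53-fold lower (log2 fold change -3.07, SE 0.08, adjusted p = 4.5e-06). B5 held 423 and 459 and shM3_CD 185 and 184, so the wild-type add-back was the lowest of the 4 groups, 9.69-fold lower than B5 (adjusted p = 2.6e-06). Antiviral genes took 5 of the 15 places, OAS1, MX1, IFIT1, IFI27 and IFIT2, and the histone genes H2BC4 and H2AC6 2 more. CHAC1, which breaks down glutathione, went from 23.0 and 23.6 to 2.81 and 3.27 FPKM and was close to its B5 level of 2.84 and 2.97 (log2 difference from B5 0.05, 95% interval -0.29 to 0.39). The pregnancy-specific glycoprotein gene PSG4 fell from 9.30 and 10.4 to 1.56 and 0.481. SUN3, a nuclear envelope protein, fell from 18.7 and 19.0 to 2.77 and 2.42, and FBXO2, a ubiquitin ligase adaptor for glycoproteins, from 13.6 and 15.1 to 2.07 and 2.12. The small nuclear RNA RN7SK, which holds the elongation kinase P-TEFb inactive, fell from 12.4 and 7.66 to 1.28 and 0.474. The remaining places went to the unnamed loci AL137800.1 and AL365184.1, with 10.4 and 12.1 and 26.7 and 27.5 FPKM in shM3 against 1.02 and 0.735 and 4.19 and 5.30.

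**Figure D2:**
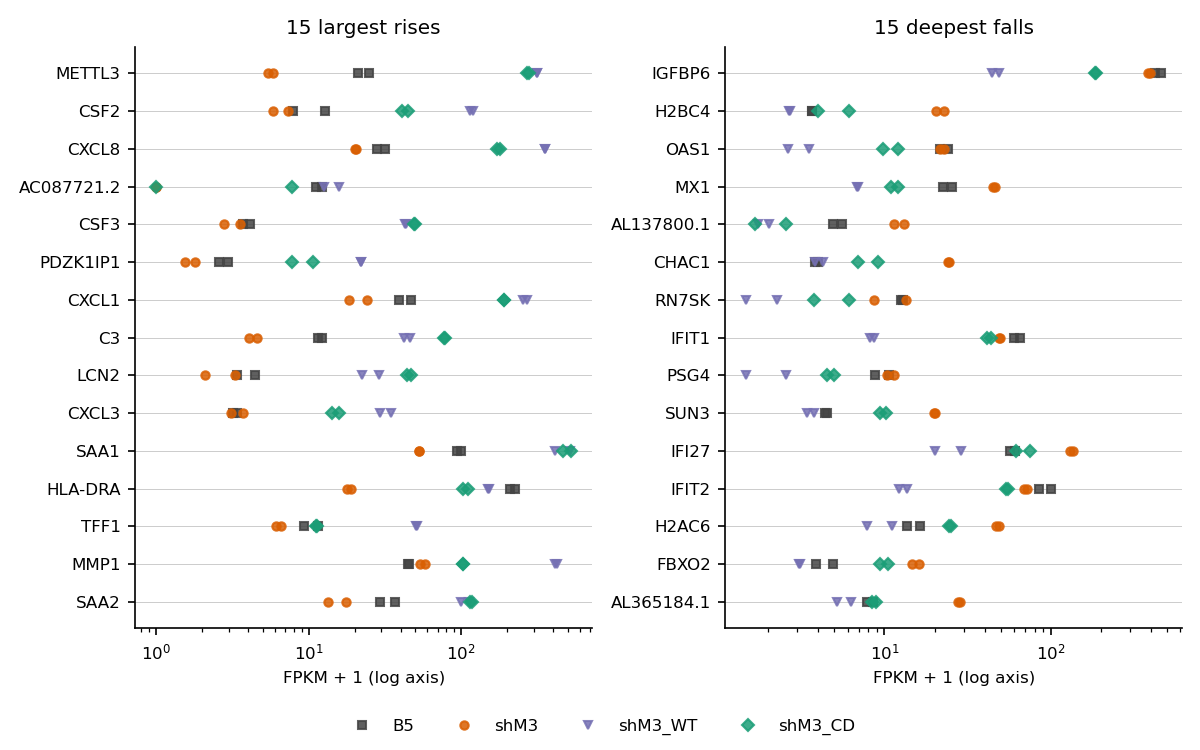
FPKM + 1 of both libraries of B5, shM3, shM3_WT and shM3_CD (horizontal log axis) for the 15 genes with the largest rise, left, and the 15 with the deepest fall, right, between shM3 and shM3_WT. The choice of these genes required the shM3_WT points to lie apart from the shM3 points. For IGFBP6 and the antiviral genes the shM3_WT points are the lowest of the 4 groups.

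Falls in the interferon pathway lay mainly among its effectors and transducers. The 63 genes of the pathway that were tested gave 44 falls and 3 rises (median log2 fold change -1.02, against -0.08 over all genes, of which 22.7% fell), and 32 of the falls were of effectors. Of 7 sensors 3 fell and 1 rose (median -0.02, and 0.07 with TMM factors). Among the sensors of foreign RNA, IFIH1, the receptor MDA5 for long double-stranded RNA, stood at 13.6 and 13.8 FPKM in shM3 and 2.57 and 3.01 in shM3_WT. It was 11.97-fold lower than in B5 (adjusted p = 4.6e-05). DDX58, the receptor RIG-I, went from 53.7 and 56.4 to 16.9 and 16.3, and DHX58, the regulator LGP2, from 9.91 and 8.40 to 3.34 and 2.87. These 3 related helicases had lower values in both add-back libraries than in any other library of the 8. The kinase EIF2AK2, the RNA editor ADAR and the endosomal receptor TLR3 did not pass, with 12.2, 27.3 and 0.643 FPKM in the add-back against 12.3, 22.2 and 0.492 in shM3. CGAS, which senses DNA in the cytosol, went the other way and rose from 20.97 and 17.5 to 30.4 and 25.8 FPKM (adjusted p = 0.021, but 0.114 without shM3 replicate 2). ADAR passed in 1 of the 8 fits that left out 1 library (lowest adjusted p = 0.0421 without shM3 replicate 2).

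Downstream, 7 of 13 transducers fell and 1 rose. Of the interferon-activated complex, IRF9 fell from 21.9 and 11.1 to 4.30 and 2.85 FPKM and STAT2 from 17.7 and 15.9 to 7.41 and 7.44. IRF9 and STAT2 were also below shM3_CD (adjusted p = 0.017 and 0.0011). STING1, the adaptor that CGAS activates, was 3.40-fold lower, its kinase TBK1 1.75-fold lower, the interferon-inducible IRF7 2.05-fold lower and the receptor kinase JAK1 1.25-fold lower. IRF1 rose, from 19.4 to 25.1 FPKM. The calls of JAK1 and IRF1 were lost without some single libraries (largest adjusted p = 0.196 without shM3 replicate 1 and 0.151 without shM3 replicate 2). The receptor genes IFNAR1 and IFNAR2 did not pass, nor did IRF3, MAVS and TYK2. IFNL1, a type III interferon, was the 1 ligand gene above the filter and fell from 1.29 and 2.02 FPKM to 0 and 0.0669. IFNB1, IFNL2, IFNL3 and IFNE were below the filter. Among feedback genes, USP18 fell (3.53-fold lower), SOCS1 rose (1.98-fold higher) and SOCS3 did not pass (12.1 against 11.2 FPKM).

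Most antiviral effectors fell. Of 39 tested, 32 fell and none rose (median -1.29), and the same count against B5 was 33 lower and 1 higher (18.2% and 11.8% of all genes). In shM3 against B5, 6 of these 39 were higher and 14 lower (median -0.20), beside 2620 and 2914 of all 14638 genes. OAS1, which makes the second messenger for RNase L, was 20.6 and 21.8 FPKM in shM3, 2.52 and 1.64 in shM3_WT, 23.2 and 20.5 in B5 and 8.78 and 11.1 in shM3_CD. MX1, a GTPase that traps viral cores, stood at 45.1 and 43.6, 5.84 and 5.96, 21.5 and 24.4 and 9.92 and 10.98 in the same order. For both, the wild-type add-back libraries were the lowest of the 8. The IFIT proteins bind viral RNA ends. IFIT1 went from 48.4 and 47.9 to 7.14 and 7.71, IFIT2 from 67.7 and 70.9 to 11.3 and 12.7 and IFIT3 from 128 and 132 to 27.2 and 26.8, all well below shM3_CD (41.6, 53.5 and 100.1 FPKM on average). HERC5, the ligase that attaches the ubiquitin-like ISG15, was 4.46-fold lower, and ISG15 itself 3.74-fold lower (622 and 629 against 159 and 175 FPKM). IFI27 fell from 135 and 129 to 19.1 and 27.9, the membrane protein IFITM1, which blocks viral entry, from 137 and 134 to 34.2 and 29.6, and IFI6 from 109 and 139 to 24.1 and 28.6. OASL, an OAS relative without the enzyme activity, fell from 55.0 and 52.3 to 15.6 and 16.3 but stood at 72.3 and 74.0 in shM3_CD.

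The letters GAAANNGAA, as in the promoters of ISG15, IFI6 and IFIT1 above, were present in 78.1% of the 32 effector promoters found, against 6.64% of all promoters of tested genes. Of the 25 effector genes with the letters 23 fell, and of the 7 without them 5 fell. Over all genes, 7.02% of the promoters of genes called lower and 6.21% of those of genes called higher held them. Among class I antigen presentation genes 56.2% of 16 promoters held the letters, and of those 9 genes 4 rose and 1 fell, the last being B2M. These are descriptions of letters in a window and not of bound sites.

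**Figure D3:**
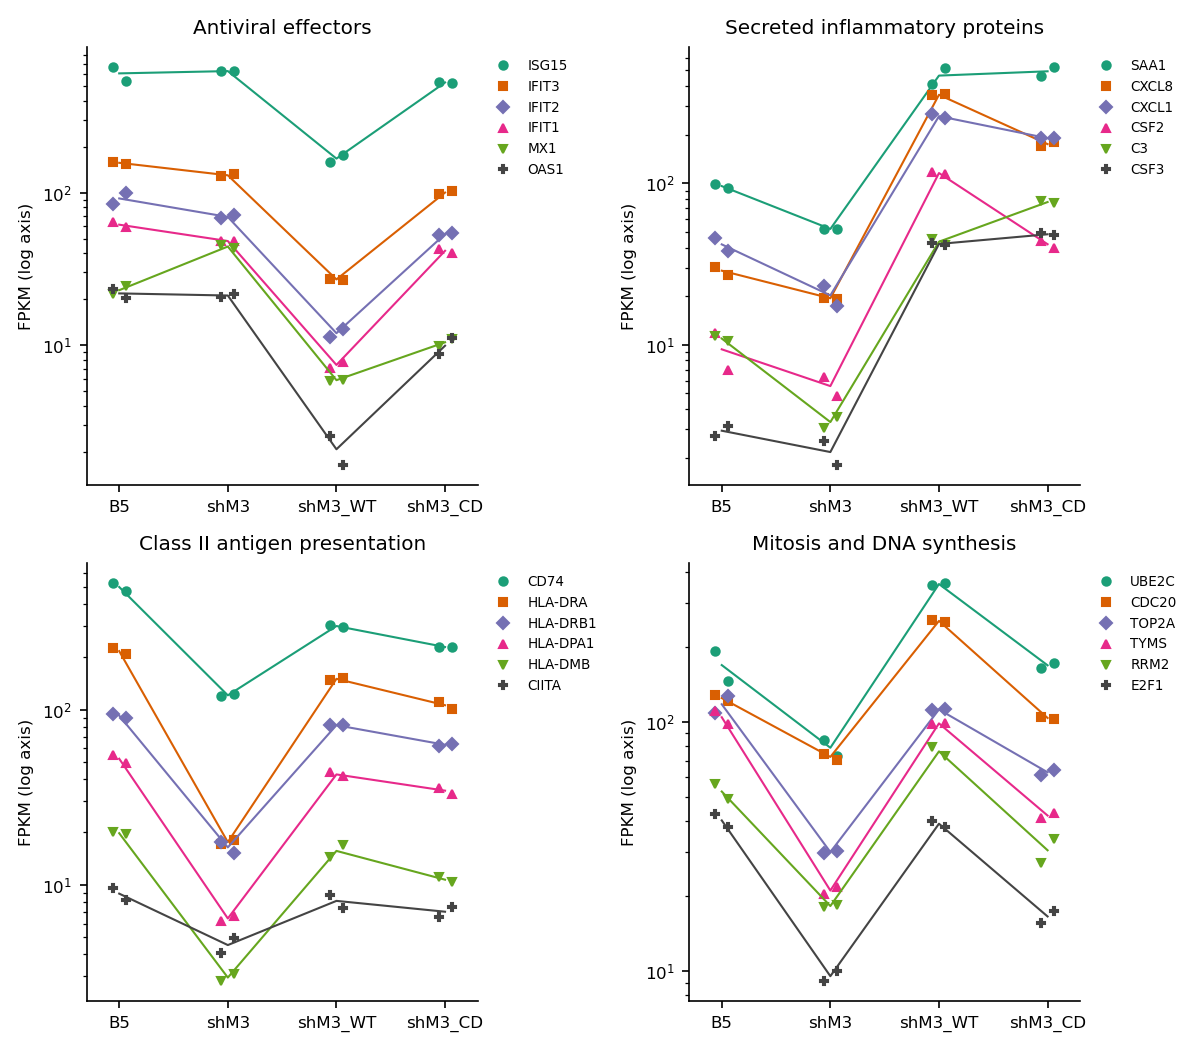
FPKM of both libraries (points, log axis) and their mean (line) for 6 genes each of the antiviral effectors, the secreted inflammatory proteins, class II antigen presentation, and mitosis with DNA synthesis, in B5, shM3, shM3_WT and shM3_CD. The antiviral genes are lowest in shM3_WT, the inflammatory genes are above B5 in both add-backs, and the class II and cell cycle genes are lowest in shM3.

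Class II antigen presentation genes, which show peptides to helper T cells, rose together. All 10 of 10 class II genes tested rose (median 1.80, against 16.7% of all genes that rose). CIITA, the master activator of the group, stood at 4.08 and 4.97 FPKM in shM3 and 8.76 and 7.41 in shM3_WT (adjusted p = 0.0069), with 9.64 and 8.15 in B5. The invariant chain CD74 went from 119 and 122 to 302 and 297, HLA-DRB1 from 17.5 and 15.1 to 81.6 and 81.3 and HLA-DPA1 from 6.19 and 6.66 to 43.7 and 41.5. For the last 3 the add-back libraries lay above both knockdown libraries and below both B5 libraries, and for CIITA they overlapped B5. The shortfall against B5 passed the test for 4 of the 10, among them HLA-DRA (1.44-fold lower) and CD74 (1.67-fold lower). The peptide loaders HLA-DMA and HLA-DMB rose 1.85-fold and 5.29-fold. HLA-DPB1 went from 0.811 to 6.40, HLA-DQB1 from 0.148 to 2.40 and HLA-DOA from 0.0293 to 1.21 FPKM. These genes averaged under 1 FPKM in shM3 and entered the test through higher values in other groups. Their rises are therefore partly set by the filter and add little to the count of 10. Most of these genes were also higher with METTL3-CD. In shM3_CD against shM3, 8 of the 10 were higher and none lower (median 1.25). Between the add-backs, 5 of the 10 were higher in shM3_WT and none lower (median 0.38). HLA genes are polymorphic and alike, and how fragments were assigned among them is not stated in the labels.

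Class I genes, which show peptides to killer T cells, gave a mixed count. Of 20 tested, 9 rose and 2 fell (median 0.33), with TMM factors 14 rose, and without shM3 replicate 2 only 5. The heavy chains HLA-B and HLA-F rose 1.55-fold and 1.71-fold, and HLA-C (164 against 198 FPKM) and HLA-E (146 against 157) did not pass. The light chain B2M went down, from 394 and 406 to 275 and 288 FPKM (adjusted p = 0.0015), and was below B5 at 449.9 and 433 and shM3_CD at 365 and 381 as well. Of the peptide supply, the immunoproteasome subunits PSMB9 and PSMB10 rose (1.97-fold higher and 1.56-fold higher), as did the transporter subunit TAP2 (1.82-fold higher) and the trimming enzyme ERAP1 (2.09-fold higher), and TAP1 and PSMB8 did not pass. The chaperones CALR and PDIA3 rose 1.79-fold and 1.97-fold. TAPBPL, a peptide editor, fell from 3.06 to 1.79 FPKM. With 1 library left out the largest adjusted p was 0.091 without shM3 replicate 1 for HLA-F, 0.062 without shM3 replicate 2 for PSMB10, 0.199 without shM3_WT replicate 2 for TAP2, 0.064 without shM3 replicate 2 for PDIA3 and 0.0919 without shM3_WT replicate 1 for TAPBPL. HLA-C passed in 2 of these 8 fits (lowest adjusted p = 0.0103 without B5 replicate 2).

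Of 10 colony-stimulating factors and interleukins tested, 8 rose and 1 fell. With METTL3-CD, 7 of them were higher than in shM3 and none lower. Between the add-backs, 2 were higher and 2 lower in shM3_WT. IL11, a cytokine of the IL6 family, stood at 43.9 and 46.3 FPKM in shM3, 154 and 150.5 in shM3_WT, against 49.3 and 47.5 in shM3_CD, so shM3_CD stayed near shM3 (3.15-fold higher in shM3_WT, adjusted p = 0.0014). IL6 ran the other way between the add-backs, with 28.5 and 29.3 in shM3, 53.6 and 54.6 in shM3_WT, against 83.2 and 104 in shM3_CD (adjusted p = 0.0063 between add-backs). IL1B rose from 0.942 and 0.889 to 10.9 and 9.67 FPKM, and IL1A, its sister cytokine, did not pass (2.93 against 3.301). LIF rose 1.84-fold, IL24 2.09-fold and the macrophage factor CSF1 1.601-fold, the last to 97.5 FPKM with 175 in B5. IL32 fell from 43.8 to 32.4, though not with TMM factors (adjusted p = 0.112). Single libraries decided the calls of IL24 and IL32 (largest adjusted p = 0.173 without shM3_WT replicate 2 and 0.176 without shM3_WT replicate 2).

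Of 9 chemokines tested 4 rose and 2 fell. The neutrophil attractants CXCL8, CXCL1, CXCL2 and CXCL3 rose, CXCL2 from 7.27 and 7.54 to 36.0 and 33.6 FPKM. CXCL10, an interferon-inducible attractant of T cells, fell from 5.50 and 6.08 to 1.71 and 2.11, and CCL5, which attracts T cells and monocytes, from 3.40 and 4.45 to 0.155 and 0.396. Both were also below B5 and shM3_CD (adjusted p = 6.7e-05 and 6.1e-04 for CXCL10, 4.4e-04 and 0.043 for CCL5). CCL20, CCL26 and CX3CL1 did not pass. The letters GGNNTTTCC stood in 6 of the 7 chemokine promoters found (85.7%, against 6.67% of tested genes), and of those 6 genes 4 rose and 1 fell. Chemokines were also higher with METTL3-CD. In shM3_CD against shM3, 5 of the 9 were higher and 1 lower (median 1.295, against 0.52 for shM3_WT). Between the add-backs, 3 were higher and 2 lower in shM3_WT.

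Of 11 complement, acute phase and related NF-kB target genes, 9 were higher and 1 lower in shM3_CD than in shM3 (median 1.896). In shM3_WT 10 rose and 1 fell against shM3 (median 1.566). Against shM3_CD, 2 were higher and 5 lower in shM3_WT. BIRC3, an inhibitor of cell death, went from 5.61 and 7.84 to 22.2 and 25.3 FPKM, and the complement protease C1R from 1.53 and 1.31 to 6.71 and 5.62. The exception was SOD2, the mitochondrial superoxide dismutase. SOD2 stood at 91.6 and 128 in shM3, 52.0 and 33.7 in shM3_WT, 118 and 89.9 in B5 and 240.1 and 160.4 in shM3_CD, so it was 2.56-fold lower than shM3 and 4.67-fold lower than shM3_CD (adjusted p = 0.0091 and 0.0028). Among genes of the NF-kB route itself, of 11 subunits and receptors 2 rose (TRAF2 and IL6ST) and 3 fell, namely the subunit RELA (1.69-fold lower), IL1R1 and TNFRSF1B. Among feedback inhibitors ZC3H12A, a ribonuclease that cuts cytokine messages, rose from 4.93 and 4.51 to 19.6 and 18.1, TNIP1 rose 1.16-fold, TNIP2 fell 1.64-fold, and NFKBIA (83.2 against 96.8 FPKM) and TNFAIP3 (7.04 against 9.61) did not pass. With 1 library left out the largest adjusted p was 0.0568 without shM3 replicate 2 for SOD2, 0.0857 without shM3_WT replicate 2 for RELA and 0.24 without shM3 replicate 1 for TNIP1, and TNFAIP3 passed in 1 of the 8 fits (lowest adjusted p = 0.0235 without shM3_WT replicate 2).

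Most genes of DNA replication rose, 47 of 53 (16.7% of all genes rose), and 1 fell. All 9 of 9 core origin licensing genes rose (median 1.01), with 24 of 25 genes of the polymerases and the fork and 7 of 7 of nucleotide supply and 7 of 12 other licensing genes. CDC6 and CDT1, which load the MCM helicase at origins, went from 6.98 and 8.27 to 38.7 and 32.8 and from 7.34 and 7.66 to 28.7 and 26.001 FPKM. They lay above B5 as well (2.47-fold higher and 1.43-fold higher). The helicase subunits MCM2, MCM3, MCM5 and MCM6 rose but were below B5 (MCM3 at 38.5 in shM3, 78.4 in shM3_WT and 104 in B5). MCM4 rose above B5 (54.0 against 38.3), and MCM7 was not called against it. ORC2, a subunit of the origin recognition complex, was the only gene of the replication lists that fell (8.90 to 6.19 FPKM), and ORC1 and ORC6 rose. Without single libraries the calls of ORC2 (largest adjusted p = 0.0702 without shM3_WT replicate 2) and MCM4 (0.0706 without shM3_WT replicate 2) were lost. PCNA, the sliding clamp, went from 40.6 and 45.7 to 113 and 122, close to the 127 and 113 of B5 (log2 difference from B5 -0.03, 95% interval -0.25 to 0.19). The polymerase subunits POLA1 and POLD1 rose 2.85-fold and 2.18-fold, the histone chaperone subunit CHAF1B 2.50-fold and the clamp loader subunit DSCC1 3.67-fold.

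TYMS, which makes thymidylate, stood at 20.4 and 21.8 FPKM in shM3, 98.0 and 99.4 in shM3_WT, 111 and 98.1 in B5 and 41.1 and 43.2 in shM3_CD. RRM2, the regulated subunit of ribonucleotide reductase, stood at 18.01 and 18.5, 79.5 and 72.9, 56.3 and 48.9 and 27.1 and 34.0. TYMS was not called against B5 (log2 difference -0.08, 95% interval -0.28 to 0.12), and RRM2 rose past B5 (adjusted p = 0.018). Both were lower in shM3_CD than with the wild type (adjusted p = 5.0e-04 and 0.0012). DTYMK, RRM1, TK1 and DUT, which also supply nucleotides, rose 1.79-fold, 1.93-fold, 2.48-fold and 2.83-fold.

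Of 30 genes of the cell cycle engine 17 rose and 6 fell, against 16.7% and 22.7% of all genes. E2F1, the activator of S phase genes, stood at 9.12 and 9.98 FPKM in shM3 and 40.2 and 37.9 in shM3_WT, against 42.8 and 37.7 in B5. E2F8, an atypical repressor that E2F1 switches on, went from 0.990 and 0.713 to 5.79 and 4.99, TFDP1, the binding partner of E2F proteins, from 32.3 and 29.9 to 78.4 and 77.7, and the pocket protein RBL1 from 3.14 and 2.98 to 7.62 and 7.93. E2F2 and E2F4 rose too, E2F7 fell (46.5 to 27.1), and RB1, RBL2, E2F3 and E2F5 did not pass. Among cyclins, the mitotic CCNB1 and CCNB2 and the S phase CCNA2 rose 3.72-fold, 4.91-fold and 3.76-fold, and CCNE2 rose 2.49-fold. The cyclins of early G1 went the other way, CCND1 from 189 and 191 to 149.99 and 142 FPKM (adjusted p = 0.0075) and CCND3 from 113 and 126 to 85.6 and 84.5, and CCNE1 fell from 13.1 to 9.82. With TMM factors CCND1 and CCND3 remained lower (adjusted p = 0.0357 and 0.0123) and CCNE1 did not pass (0.0551, and with 1 library left out up to 0.114 without shM3 replicate 1). CDK1 rose 3.46-fold, CDK2 1.80-fold and CDK6 2.25-fold, CDK4 did not pass, and the call of CDK2 was lost without some libraries (largest adjusted p = 0.209 without shM3_WT replicate 1). The phosphatases CDC25A (1.96-fold), CDC25B (1.65-fold) and CDC25C (2.98-fold), which activate these kinases, all rose. Of the inhibitors of these kinases, CDKN1C (p57) fell from 15.1 and 13.7 to 3.82 and 3.69 and CDKN1B (p27) from 19.1 and 19.7 to 8.86 and 9.43. Both were below B5 and shM3_CD too. CDKN1A (p21) stood at 79.1 and 81.6 and 64.7 and 100.004 and was not called (log2 fold change 0.00, 95% interval -0.70 to 0.71), CDKN2C was not called, and CDKN2D rose 2.02-fold.

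Of 70 mitosis genes tested, 67 rose and none fell (median log2 fold change 1.43). The same genes counted 26 higher and 2 lower against B5, and 56 higher and none lower against shM3_CD (10.2% of all genes were higher there). UBE2C and UBE2S, the ubiquitin-conjugating enzymes of the anaphase-promoting complex, went from 84.9 and 72.7 to 354 and 361 and from 43.5 and 41.5 to 167 and 178 FPKM. CDC20, the activator of that complex, went from 74.4 and 70.4 to 257 and 252, above the 128 and 121 of B5 (adjusted p = 1.9e-04). For these 3 genes the add-back libraries were the highest of the 8. FOXM1, a transcription factor of late cell cycle genes, went from 8.71 and 6.32 to 43.7 and 27.1, 2.06-fold higher than B5, and the kinases AURKA and AURKB rose 2.49-fold and 3.31-fold. The spindle motors KIFC1 and KIF2C rose 5.55-fold and 5.57-fold, the chromosome passenger subunits CDCA8 and INCENP 4.80-fold and 3.33-fold, and SPC25, a kinetochore subunit, 5.46-fold. TOP2A, which untangles replicated DNA, stood at 29.7 and 30.4, 111 and 113, 109 and 127 and 61.5 and 64.1 FPKM in shM3, shM3_WT, B5 and shM3_CD, so the add-back libraries lay between those of B5. MKI67, the proliferation antigen Ki-67, stood at 9.15 and 10.0, 32.1 and 30.6, 28.4 and 32.3 and 11.5 and 12.3 in that order.

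TTTGAA, as in the CDC20 and TOP2A promoters above, was found in 41 of the 58 mitosis promoters (70.7%, against 9.48% of tested genes), and 39 of those 41 genes rose, as did all 17 without it. Of promoters of genes called higher 13.8% held it, against 7.56% of genes called lower. Of 43 DNA repair genes 27 were called higher and 5 lower. EXO1, the exonuclease that resects breaks, went from 3.40 and 3.56 to 13.7 and 12.7 FPKM, the recombination motor RAD54L from 4.10 and 3.77 to 11.6 and 11.6, and the Fanconi proteins FANCI and UBE2T from 10.2 to 28.2 and 22.7 to 70.2. CHEK1, the replication checkpoint kinase, rose from 17.2 to 27.7 (adjusted p = 0.0087, but 0.0545 without shM3_WT replicate 2). ATM, the kinase of double-strand breaks, fell from 14.9 and 14.4 to 8.94 and 9.44 and was below B5 at 18.5 and 20.4, with ATR and CHEK2 not called. PALB2, XPA, XPC and ERCC2 made up the remaining falls.

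**Figure D4:**
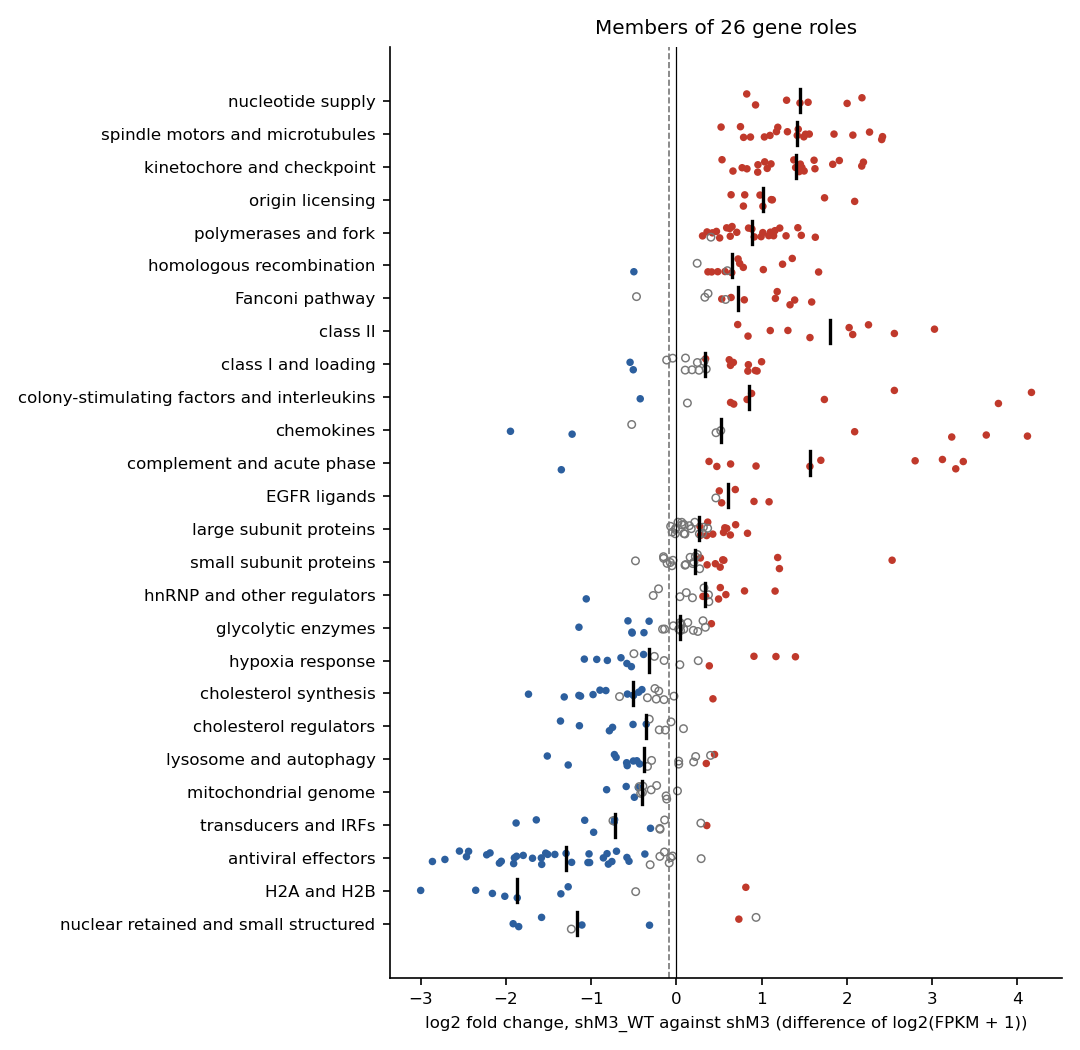
Log2 fold change of shM3_WT against shM3 for the tested members of 26 gene roles, 1 point per gene. Filled red and blue points passed the test upward and downward, open points did not, the black bar is the median of the role and the dashed line the median of all genes (-0.08). Nucleotide supply and mitosis genes lie to the right of 0, and antiviral effectors and histones mostly to the left.

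Replication-dependent histone genes mostly fell, unlike the replication genes above. Of 15 tested, 12 fell and 1 rose (median -1.27), and 18 others were below the filter. H2BC4 went from 21.9 and 19.3 to 1.67 and 1.73 FPKM, H2AC6 from 45.6 and 48.0 to 6.90 and 10.1, H2BC5 from 67.2 and 64.0 to 13.3 and 14.6 and the linker histone H1-2 from 54.4 and 62.5 to 25.3 and 26.7. In B5 these stood at 2.68, 14.05, 21.02 and 26.4 on average, so for H2BC4 and H1-2 the wild-type add-back was not called different from B5. H2AC20 was the 1 that rose, from 0.316 to 1.30. Most histone messages carry no poly(A) tail, and histone genes are near-identical copies. Some other RNAs that lack a usual tail fell in the same libraries, but not all. The falls include RN7SK, the signal recognition particle RNA RN7SL1 (338 and 387 to 80.8 and 123), MALAT1 (14.2 and 15.8 to 3.47 and 3.00), and all 4 ribosomal RNA entries. Both mitochondrial ribosomal RNAs fell too. The long nuclear RNA NEAT1 fell from 4.42 and 9.76 to 1.46 and 1.65. The calls of NEAT1 and H2AC20 were lost without single libraries (largest adjusted p = 0.114 without shM3 replicate 2 and 0.178 without shM3_WT replicate 1). Of the snoRNA hosts, SNHG1 rose from 20.8 to 35.2 and GAS5 fell from 127 to 102 (adjusted p with TMM factors 0.153 and with 1 library left out up to 0.212 without shM3 replicate 1). With TMM factors 3 of the 5 falls in the list of nuclear RNAs passed. Of 51 snoRNA entries 7 rose and none fell. Other small RNA classes shared no direction. Of 22 mitochondrial transfer RNAs 5 rose and 8 fell, and of 5 small nuclear RNAs 1 rose and 2 fell. Of 24 entries typed as miscellaneous RNA 4 fell and none rose, and neither of 2 ribozyme entries was called. The protocols describe both poly(A) minus and plus fractions without saying which was used here, and the part of RNA selection in these values was not tested.

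Genes of cholesterol synthesis mostly fell. Of 20 enzymes of the pathway 12 fell and 1 rose (median -0.50, against 22.7% of all genes that fell). HMGCS1, which makes the precursor HMG-CoA, stood at 13.7 and 13.3 FPKM in shM3 and 5.13 and 4.52 in shM3_WT, MSMO1, which demethylates sterols, at 53.4 and 47.1 and 13.1 and 15.7, and DHCR7, the last step, at 42.8 and 43.4 and 20.7 and 17.9. All 3 were also below B5 and shM3_CD. PMVK, phosphomevalonate kinase, was the enzyme that rose (26.3 to 35.7). The regulators SREBF2 and SREBF1, the sterol-regulated transcription factors, fell 1.72-fold and 1.29-fold, and their target INSIG1 2.74-fold. With 1 library left out the largest adjusted p was 0.07 without shM3 replicate 2 for PMVK and 0.0516 without shM3 replicate 1 for SREBF1. Among fatty acid enzymes the desaturase SCD fell from 56.9 and 58.1 to 20.7 and 18.7 and the synthase FASN from 89.7 and 97.9 to 56.0 and 47.0, and FADS1 rose from 18.5 to 36.3.

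Glycolysis showed no common direction. Of 21 genes 1 rose and 6 fell, and with TMM factors it was 5 and 5. The glucose transporters parted, SLC2A1 rising from 107 and 117 to 148 and 149 FPKM and SLC2A3 falling from 15.8 and 15.4 to 6.61 and 6.40. Of 16 hypoxia response genes, 9 were higher and none lower in shM3_CD than in shM3 (median 0.48). In shM3_WT 7 of the 16 fell and 4 rose against shM3 (median -0.32). In shM3_WT 11 were lower and none higher than in shM3_CD (15.7% of all genes were lower there), and this gap includes the rises with METTL3-CD. HIF1A, the oxygen-regulated transcription factor, fell from 95.5 and 114 to 54.5 and 53.5. VEGFA, the angiogenic factor, rose from 64.7 and 61.9 to 142 and 145, and stood at 146 and 146 in shM3_CD. NDRG1 stood at 91.6 and 87.7 in shM3, 40.0 and 43.9 in shM3_WT, against 125 and 123 in shM3_CD, and DDIT4, an inhibitor of mTORC1, at 76.3 and 73.6, 49.6 and 50.0 and 143 and 143. For both, the wild-type add-back was the lowest group and METTL3-CD the highest.

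Of 8 regulators of the amino acid response 4 fell. The regulators DDIT3 (CHOP), ATF3, ATF5 and TRIB3 fell 2.90-fold, 3.24-fold, 1.62-fold and 1.54-fold, while ATF4 itself stood at 135 and 130.3 FPKM in shM3 and 143 and 131 in shM3_WT and was not called (95% interval of the log2 fold change -0.15 to 0.24). With 1 library left out the largest adjusted p was 0.0591 without shM3_WT replicate 1 for ATF3 and 0.0939 without shM3_WT replicate 1 for ATF5. Of 18 targets 4 rose and 6 fell, and with TMM factors 5 and 4. SESN2, a sensor of leucine, fell from 18.5 and 16.9 to 3.72 and 3.62 and CTH, which makes cysteine, from 18.1 and 32.6 to 8.46 and 6.79. PSAT1 of serine synthesis rose from 17.9 and 17.2 to 47.4 and 48.1, and the amino acid transporters SLC7A5 and SLC7A1 rose 1.73-fold and 2.30-fold. Of 13 genes of endoplasmic reticulum stress 7 rose and 2 fell (16.7% and 22.7% of all genes). The chaperone PDIA4 rose from 47.8 to 129 and the chaperone HSP90B1 from 199.5 to 358, and DNAJB9 fell from 12.8 to 8.26 and HERPUD1 from 22.5 to 12.9 (largest adjusted p with 1 library left out 0.151 without shM3_WT replicate 2 for HERPUD1).

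Ribosomal protein genes rose in 11 of 29 large subunit and 9 of 24 small subunit cases, and none fell. Of all genes 16.7% rose, and of genes at 100 FPKM or more in the 4 libraries 29.1%. Without shM3 replicate 2 the large subunit count was 5, and without shM3 replicate 1 or shM3_WT replicate 2 it was 6. RPL4 went from 306 to 449.8 FPKM and RPS6 from 460.3 to 678. The largest rise was that of RPS24, with 139 and 137 in shM3, 778 and 826 in shM3_WT, 671 and 499 in B5 and 282 and 271 in shM3_CD. Of 22 nucleolar genes 10 rose and 3 fell, and the falls, of NOLC1, HEATR1 and NOP58, did not pass with TMM factors (adjusted p = 0.12, 0.128 and 0.143) or without some single libraries (largest adjusted p = 0.123 without shM3_WT replicate 1, 0.172 without shM3_WT replicate 2 and 0.24 without shM3 replicate 2). NPM1 and FBL rose 1.52-fold and 1.42-fold, and TCOF1, which supports ribosomal RNA synthesis, went from 10.5 and 9.86 to 41.4 and 37.9. EEF1A1, which brings transfer RNA to the ribosome, fell from 5306 and 4982 to 4074 and 3722 (adjusted p = 0.012, but 0.0952 without shM3 replicate 1). The mitochondrial genome gave 4 falls and no rise among 13 messages, and 2 falls with TMM factors, beside 22.7% of all genes that fell. MT-CO1 went from 5117 to 2900.1. Of the nuclear genes of respiration, 8 of 24 rose (5 without shM3 replicate 2) and 1 fell.

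The series title names BET proteins and global transcription, so the transcription machinery was read as well. BRD2 and BRD3, bromodomain readers, did not pass, with 58.3 against 54.4 and 8.27 against 9.45 FPKM. HEXIM1, the protein inhibitor of P-TEFb, fell from 47.2 and 44.7 to 25.1 and 28.7, and CDK9 and CCNT1, the kinase and its cyclin, did not pass. Of 24 genes of the polymerase and of elongation 4 rose and 9 fell (16.7% and 22.7% of all genes), among the falls POLR2A, the largest subunit, from 64.9 and 67.3 to 37.6 and 35.1. MYC stood at 7.53 and 7.25 in shM3, 4.27 and 2.96 in shM3_WT, against 3.70 and 24.6 in B5. It was not called against shM3 (log2 fold change -0.88, adjusted p = 0.33). MYC differed widely between the B5 libraries, and their spread enters this p. It passed in 2 of the 8 fits that left out 1 library (lowest adjusted p = 0.00628 without B5 replicate 1). Of its network 4 genes fell and 1 rose. The antagonists MXD1, MXD4 and MNT fell, MXD1 from 7.24 and 6.79 to 1.86 and 1.75, as did MGA (5.04 to 3.76, adjusted p with TMM factors 0.0922 and with 1 library left out up to 0.159 without shM3_WT replicate 1), while the antagonist MXD3 rose from 10.1 to 21.2. Of 28 splicing regulators 12 were called higher and 2 lower, and SRSF4 went from 9.04 and 9.87 to 25.7 and 25.9.

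Matrix and surface genes changed in both directions. Of 13 collagens 6 rose and 1 fell. THBS1, a matrix protein that activates TGF-beta, stood at 33.5 and 36.9 FPKM in shM3, 177 and 175 in shM3_WT, 154 and 194 in B5 and 54.8 and 77.6 in shM3_CD. Tenascin TNC went from 7.93 and 7.43 to 39.0 and 40.8, above B5 at 13.4 and 16.2, and FN1, fibronectin, from 39.6 and 45.2 to 79.3 and 76.9, below B5 at 168 and 178. MMP9 rose from 0.188 to 2.02 and MMP14 from 117 to 229, and the inhibitors TIMP1 and TIMP3 fell 1.52-fold and 1.41-fold. TIMP2 stood at 30.9 and 79.3 in shM3 and 108 and 97.3 in shM3_WT and did not pass (adjusted p = 0.13, but 0.0322 without shM3 replicate 2), though it was 4.05-fold higher than in shM3_CD. CD44, the hyaluronan receptor, went from 25.7 and 27.8 to 213 and 162, with 125 and 121 in B5 and 60.98 and 44.6 in shM3_CD. Vimentin, VIM, rose from 696 and 689 to 1183 and 1121 and the repressor SNAI2 fell from 18.03 and 22.3 to 11.8 and 11.3. Of 13 YAP and TEAD genes 4 rose and 6 fell, YAP1 rising 1.57-fold and the target ANKRD1 falling 1.94-fold.

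Of the EGFR ligands 5 of 6 rose, HBEGF from 40.4 and 38.2 to 57.0 and 57.3 FPKM and TGFA from 11.3 and 16.5 to 29.1 and 24.3, and EGFR itself went from 24.2 and 24.4 to 37.2 and 34.7, still below the 53.4 and 52.0 of B5. The receptor EPHA2 rose from 61.7 and 65.1 to 148 and 154 and AXL from 138 to 226, and DDR1, ERBB2 and ERBB3 fell. DUSP1 and DUSP5, phosphatases that shut off MAP kinases, fell from 77.4 and 72.2 to 21.4 and 19.1 and from 116 and 117 to 31.8 and 31.7, to levels not called different from B5 (16.3 and 17.5 and 36.0 and 32.9). JUNB, JUND, FOS and EGR1 fell, JUNB from 71.2 and 67.6 to 28.7 and 26.8. FOSL1, an AP-1 subunit of invasive cells, rose from 90.1 and 88.6 to 147 and 159 and was at 61.1 and 57.2 in shM3_CD. Unlike IGFBP6, the binding proteins IGFBP4, IGFBP1 and IGFBP3 rose, IGFBP4 from 217 and 225 to 1012 and 998, and IGFBP7 did not pass.

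Of 14 BCL2 family genes 2 rose and 4 fell, near the 16.7% and 22.7% of all genes. BBC3 (PUMA), a killer protein, fell from 17.1 and 19.4 to 4.32 and 3.46 FPKM, BMF from 5.39 and 4.13 to 1.37 and 0.844 and BAK1 from 98.3 and 98.2 to 52.4 and 51.2, and the protective BCL2L1 fell as well, from 220.01 and 159.8 to 117 and 116. BCL2A1, a protective NF-kB target, rose from 0.331 and 0 to 7.30 and 8.69. MCL1, BAX, BAD and BID did not pass. Of 17 p53 targets 3 rose and 3 fell, again near the shares of all genes, GDF15 falling from 19.0 and 19.2 to 3.18 and 3.40 with 87.8 and 92.5 in B5. MDA-MB-231 carries mutant p53. Of 18 lysosome and autophagy genes 9 fell and 2 rose (22.7% and 16.7% of all genes), and with TMM factors 4 rose. The rises were of the membrane protein LAMP2 (largest adjusted p with 1 library left out 0.0846 without shM3_WT replicate 1) and the protease CTSB (131 to 179 FPKM). Among the falls were ULK1, the kinase that starts autophagy, from 18.9 and 21.3 to 7.14 and 5.66 and SQSTM1 from 257 and 255 to 176 and 165. HMOX1, which breaks down haem, fell from 25.4 and 23.8 to 7.02 and 7.22, and the transferrin receptor TFRC rose from 23.8 and 22.8 to 82.1 and 68.9.

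Markers of the line were read as a check of the label. VIM, CAV1 and CD44 were present at 1152, 90.0 and 188 FPKM in shM3_WT, and CDH1, ESR1 and PGR, read as markers to be low or absent, were below the filter. KRT5, KRT14 and TP63 were below it too, but were not read as markers to be low or absent. Of 8 basal and mesenchymal markers listed for the line, 5 were above the filter and 3 below it. ERBB2 and EPCAM, also read as markers to be low or absent in such a line, were above the filter. Of 12 luminal markers 8 were above the filter, of which 5 fell and 1, TFF1, rose. The keratins KRT8, KRT18 and KRT19 of simple epithelium were abundant in shM3 (433, 177 and 429 FPKM) and fell to 308, 138 and 223, and the surface proteins EPCAM and MUC1 fell from 10.2 to 5.31 and from 3.99 to 1.14. Without single libraries the calls of KRT8 and KRT18 were lost (largest adjusted p = 0.209 without shM3_WT replicate 2 and 0.0775 without shM3_WT replicate 2), as they were with TMM factors (0.112 and 0.0767). The summed level of the 8 was 1083 and 1047 FPKM in shM3 and 763 and 698 in shM3_WT. KRT17, a basal keratin, fell from 9.26 to 1.45. Of 10 fibroblast and endothelial markers 5 were below the filter (PDGFRA, DCN, FAP, VWF and CDH5). The other 5 summed to 8.14 and 7.70 FPKM in shM3 and 5.75 and 5.396 in shM3_WT, and 1 of them fell, the endothelial receptor KDR (3.84 to 1.86). Of 10 haematopoietic markers 5 were below the filter, among them PTPRC, CD3E, TYROBP and SPI1, and the other 5 summed to 44.5 and 35.7 FPKM in shM3 and 59.8 and 61.4 in shM3_WT. The part of other cells in the results was not tested. LAPTM5 was the 1 haematopoietic marker that rose, from 8.57 and 6.64 to 31.1 and 32.6 FPKM, with 36.1 and 35.1 in B5. Summed FPKM ran from 434585 to 451115 over 7 libraries. In B5 replicate 2 a single gene, PIDD1, had a value of 8234197, and the sum without it was 423171. The files hold no read totals. Ratios of the lowest values between libraries put the shM3_WT libraries at 1.27 and 1.29 times the depth of shM3 replicate 1, and shM3 replicate 2 at 0.979. These ratios are rough, since the commonest ratio, within 0.01 on the log2 scale, held 12.1% to 13.2% of the low genes compared.

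The structure of the called genes is given by medians, with no test. Over protein-coding genes with annotated transcripts, the median transcript was 3038 nt for genes called higher, 3582 nt for those called lower and 3350 nt for all tested (GENCODE 29). The median number of GGACT, a preferred methylation sequence, was 0.915, 0.960 and 0.928 per kb in the same order, and the median GC content 48.7%, 50.5% and 48.7%. Among called genes changed at least 2-fold the median transcript was 3133 nt for those higher and 3121 nt for those lower. Their GGACT medians were 0.925 and 0.991 per kb and their GC medians 47.7% and 52.6%. Of all protein-coding genes with over 16 exons 30.2% were lower and 16.7% higher, and of those with 1 exon 29.3% and 16.7%. With 5 to 8 exons the shares were 20.3% and 19.8%. Of genes at 100 FPKM or more in the 4 libraries 19.4% were lower and 29.1% higher. These shares are descriptions, and longer, higher genes are also measured with more fragments.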

How the data were processed

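The values are gene-level FPKM that the authors deposited for 8 libraries of MDA-MB-231 cells. The submitters' processing notes name CASAVA 1.4, HISAT2 2.1.0, Cufflinks 2.2.1 and hg38. Annotation, options, strand use and read totals are, for these files, not given in the sources used here, so the depth behind an FPKM is unknown. Multiply mapped fragments can be split between near-identical genes.

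From these values, genes that reached 1 FPKM in 2 or more of the 8 libraries were tested with limma 3.58.1 (R 4.3.3) on log2(FPKM + 1), with 1 fit of 4 groups of 2 libraries, a mean-variance trend and Benjamini-Hochberg adjustment over all genes tested. Calls are at an adjusted p under 0.05, and adjusted p-values in the text are from this fit unless a setting is named. Intervals are 95% intervals of the moderated fit. Gene locations came from GENCODE 29 and promoters from RefSeq (GRCh38.p14).

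Named genes were the 15 largest changes each way (mean of 5 FPKM or more, libraries not overlapping), up to 6 members each way by adjusted p in each role described (or the 2 of highest level where none passed), every member of core roles, and METTL3. The rule does not cover ISG15 and IFI6, which were added once their values had been seen. A few genes and a sequence that the rule covers are not reported here. The lists, the rule and the comparison itself were chosen with earlier results of these data known. Alternatives were TMM and median scaling, other pseudocounts and filters, fewer groups, a replicate block, no trend, a 2-fold minimum and leaving out each library.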

Additional observations from a re-analysis of the deposited data

Results flagged for a closer look

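For 4 named genes the add-backs moved in opposite directions from shM3, each past the threshold, and the difference between them passed as well (limma, Benjamini-Hochberg adjustment over all genes). OASL was lower with METTL3-WT and higher with METTL3-CD (log2 difference of shM3_WT from shM3_CD -2.13, adjusted p = 5.7e-05). The same held for the hypoxia response gene NDRG1 (-1.54, adjusted p = 1.5e-04) and for DDIT4 (-1.50, adjusted p = 1.2e-04). FOSL1 was higher with METTL3-WT and lower with METTL3-CD (1.35, adjusted p = 7.1e-04). In each case both libraries of a group lay on the same side. Over all genes there were 36 of this kind, 31 lower with METTL3-WT and higher with METTL3-CD and 5 the reverse. Both add-backs are set against the same shM3 libraries. Groups of 2 libraries are too small to test for a library that lies far from the others.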

How the results depend on the processing

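With 1 library left out, calls between shM3_WT and shM3 ranged from 3877 to 5970 (5772 with all libraries). The range was 2642 to 3942 against B5 and 1781 to 4003 against shM3_CD, with the lowest values where a shM3_WT or shM3_CD library was missing. It was 500 to 1792 for shM3_CD against shM3 (1670 with all) and 3654 to 5232 for shM3 against B5 (5534). A group left with 1 library is assumed to vary like the others. A 2-fold minimum left 1193, 774, 450, 267 and 1134 calls in these 5 comparisons, in that order, by its construction. Scaling, pseudocount, filter, trend and the choice of groups kept each of these counts within 1.5 times its value. METTL3 passed in every setting run, with a log2 fold change of 5.05 to 6.05.

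The replicate number as a block gave 5520 calls for shM3_WT against shM3. Libraries that share a number did not deviate together (correlations of -0.03 to 0.04 over genes), so the numbers do not pair them. Of the named genes, CBLL1, CDK2, H2AC20, IL24, IRF1, TAP2, TNIP1, GAS5, HEATR1, MGA and NOP58 did not pass with this block (adjusted p = 0.0681, 0.0561, 0.0529, 0.0513, 0.0529, 0.0533, 0.0731, 0.0515, 0.0647, 0.0565 and 0.0577).

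Over 263 named genes other than METTL3 and the settings run, 4228 of 4458 values kept their side of the threshold, 214 no longer passed and 16 newly passed, and 0 of the values that passed in either fit changed direction. With 2 libraries a group and no read totals, a p that misses the threshold does not show that a gene kept its level.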
